A study of Mus musculus with 5 samples.

Results

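The interferon receptor chains described here are the 4 genes Ifngr1, Ifngr2, Ifnar1 and Ifnar2, chosen by name out of 31950 genes that the tumor and lymph node matrices have in common. Their transcripts were followed across cell classes of MC38 tumors and of tumor-draining lymph nodes (TDLNs), and across treatments in MC38 tumors. All 4 passed the filter on low counts in every fit, so no member is missing from a comparison.

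Interferon-γ, the type II interferon, signals through a receptor made of Ifngr1, the chain that binds the ligand and carries JAK1, and Ifngr2, the accessory chain that carries JAK2. Type I interferons signal through Ifnar1, which carries TYK2, and Ifnar2, the chain with the higher affinity for the ligand, which carries JAK1. Both receptors lead to phosphorylation of STAT proteins and to transcription of interferon-stimulated genes, and IFN-γ is made mainly by T and NK cells. In T cells, Ifngr2 is the chain whose amount is best known to vary with differentiation.

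The libraries came from male wild-type C57BL/6J mice carrying subcutaneous TRAMP-C2 prostate tumors, from which TDLNs were taken, or MC38 colon tumors, from which the tumor was taken. Mice received isotype control antibodies or dual checkpoint inhibition with anti-CTLA4 and anti–PD-1 (CPI) on days 3, 6 and 9, followed on day 12 by vehicle or by 20 mg/kg ABT-317, an inhibitor of JAK1, and tissue was harvested on day 15. The TDLN cells were unsorted, whereas tumor cells were sorted on CD45 and the positive and negative fractions were mixed in equal parts. Cells of differently treated mice were tagged with hashtag antibodies and pooled, 60000 cells per droplet reaction, in 3 TDLN reactions and 2 MC38 reactions.

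The tumors therefore fall into 4 treatment groups, isotype, CPI, isotype + ABT-317 and CPI + ABT-317, each with 1 hashtag in each of the 2 MC38 reactions. Whether a hashtag marks 1 mouse or several was not stated in the labels, and the p-values below measure the spread between reactions, which may be technical. The TDLN matrices held no hashtag UMIs, so the lymph node classes could not be split by treatment.

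Depth and cell identity set limits on all values that follow. The MC38 reactions held 425774361 and 369032325 UMIs (unique molecular identifiers, each counting 1 captured transcript) in barcodes that passed the filters, with medians of 2871 and 3178 genes per barcode. The TDLN barcodes were shallower, with medians of 1905, 1713 and 1853 UMIs, and 98.4%, 95.1% and 99.3% of the clustered ones lay in clusters that mixed markers of T and B cells. Between 3.84% and 8.71% of the barcodes of the smaller library of each pair of reactions also occurred in the other. Classes were named from marker genes, and the receptor chains and their pathway genes were left out of the clustering, so the class comparisons did not reuse them. In MC38 tumors 11 classes were compared, of which 10 carried the markers of a cell type and are called macrophage-like, T-like and so on. The eleventh, the largest, had 16096 barcodes with almost no Ptprc (the gene of CD45), 0.807 CPM (counts scaled to library size, that is, the UMIs of a gene as a share of all UMIs of the class) summed over 8 epithelial tumor markers, and leading genes such as H19, Cilp, Wnt6 and Cox6a2; it was left unnamed and is called Ptprc-low. A further 12831 barcodes in clusters without a name were left out, and the plots give class names without "-like".

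Class and treatment went together. Isotype hashtags marked 82.9% of the macrophage-like barcodes and CPI hashtags only 1.06%, whereas CPI hashtags marked 70.5% of CD8 effector or exhausted T-like barcodes, 67.0% of regulatory T (Treg)-like barcodes and 67.3% of fibroblast-like barcodes. The macrophage-like share depends on how classes were set. In the 2 reactions 68 and 45 CPI barcodes were macrophage-like, and 539 and 263 lay in clusters without a name. When only barcodes under 2500 genes were clustered, 368 and 221 CPI barcodes were macrophage-like, and with classes set by a marker gate 344 and 220. A class difference pooled over treatments thus cannot be told apart from a treatment difference, and it is given below with the values of single treatments where these differ.

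Of the 4 genes, 3 are neighbors. On mouse genome build GRCm38.p6 Ifnar2 lies at chr16:91372783-91405589, Ifnar1 at chr16:91485032-91510523 and Ifngr2 at chr16:91547059-91564007, with Il10rb, a chain of the IL-10 receptor, between the first pair at chr16:91406157-91425834. Ifngr1 lies alone at chr10:19591949-19610229. The start regions of the chains of the IFN-γ receptor are shown because these 2 genes gave the most different class patterns in the data. Each runs from 250 bases before to 50 bases after the RefSeq start, on the + strand, at chr10:19591699-19591998 for Ifngr1 and chr16:91546809-91547108 for Ifngr2, and capitals mark GC boxes (GGGCGG on either strand).
Ifngr1: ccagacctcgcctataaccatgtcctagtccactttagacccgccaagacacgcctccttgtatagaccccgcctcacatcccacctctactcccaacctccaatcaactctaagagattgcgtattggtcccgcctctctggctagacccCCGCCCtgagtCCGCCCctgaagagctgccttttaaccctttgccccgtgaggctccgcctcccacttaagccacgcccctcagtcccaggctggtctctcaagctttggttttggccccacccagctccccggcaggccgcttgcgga
Ifngr2: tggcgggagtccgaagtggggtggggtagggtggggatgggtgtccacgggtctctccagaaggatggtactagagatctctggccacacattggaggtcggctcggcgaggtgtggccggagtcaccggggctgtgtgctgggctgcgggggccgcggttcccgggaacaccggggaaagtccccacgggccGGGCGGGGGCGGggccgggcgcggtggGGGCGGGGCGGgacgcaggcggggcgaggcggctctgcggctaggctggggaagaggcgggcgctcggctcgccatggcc

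The Ifngr1 window held 14 CpG dinucleotides and 2 GC boxes, the Ifngr2 window 31 CpG dinucleotides and 4 GC boxes, 2 of which overlap by 1 base. Over all 32851 promoter windows of this length the median was 7 CpG dinucleotides, and 35.7% held a GC box. Neither window held the letters TTCNNNGAA of a gamma-activated site, which 8.30% of all windows hold, whereas the windows of Ifnar1 (chr16:91484965-91485264) and Ifnar2 (chr16:91372533-91372832) held 1 each. None of the 4 windows held the core of an interferon-stimulated response element (GAAA, any 2 bases, GAAA), present in 3.44% of windows, or TATAAA, present in 13.6%; both strands were searched for each motif.

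In MC38 tumors the ligand-binding chain Ifngr1 was highest in lymphocytes and its partner Ifngr2 was highest in macrophage-like and dendritic-like cells. Ifngr1 in the 2 reactions was 637 and 759 CPM in Treg-like cells, 562 and 798 in CD4 helper T-like cells, 342 and 511 in CD8 effector or exhausted T-like cells and 281 and 408 in NK-like cells. All 4 lymphocyte classes lay above every other class in both reactions, and the reactions of the first pair overlapped, as did those of the second pair. Reaction 2 was the higher one in each of these 4 classes, and within each reaction CD8 effector or exhausted T-like cells lay above NK-like cells, whereas Treg-like and CD4 helper T-like cells changed order. Dendritic-like cells followed at 192 and 233, then endothelial-like cells at 95.5 and 147 and macrophage-like cells at 91.9 and 108, which overlapped across reactions but lay in the same order within each. The lowest levels were 55.7 and 66.7 in fibroblast-like, 47.8 and 51.5 in mural-like, 40.5 and 59.2 in neutrophil-like and 30.6 and 37.0 in Ptprc-low cells. Neutrophil-like cells overlapped the fibroblast-like and mural-like classes, and Ptprc-low cells, taken as a whole, lay below all others. Ptprc-low cells held mainly a pair of clusters. Over both reactions Ifngr1 was 54.4 CPM in the cluster of 8448 barcodes and 17.5 in that of 7571, and the first value lay above mural-like (49.6) and neutrophil-like cells (47.2), so the lowest rank is that of the summed class and not of each cluster.

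**Figure D1:**
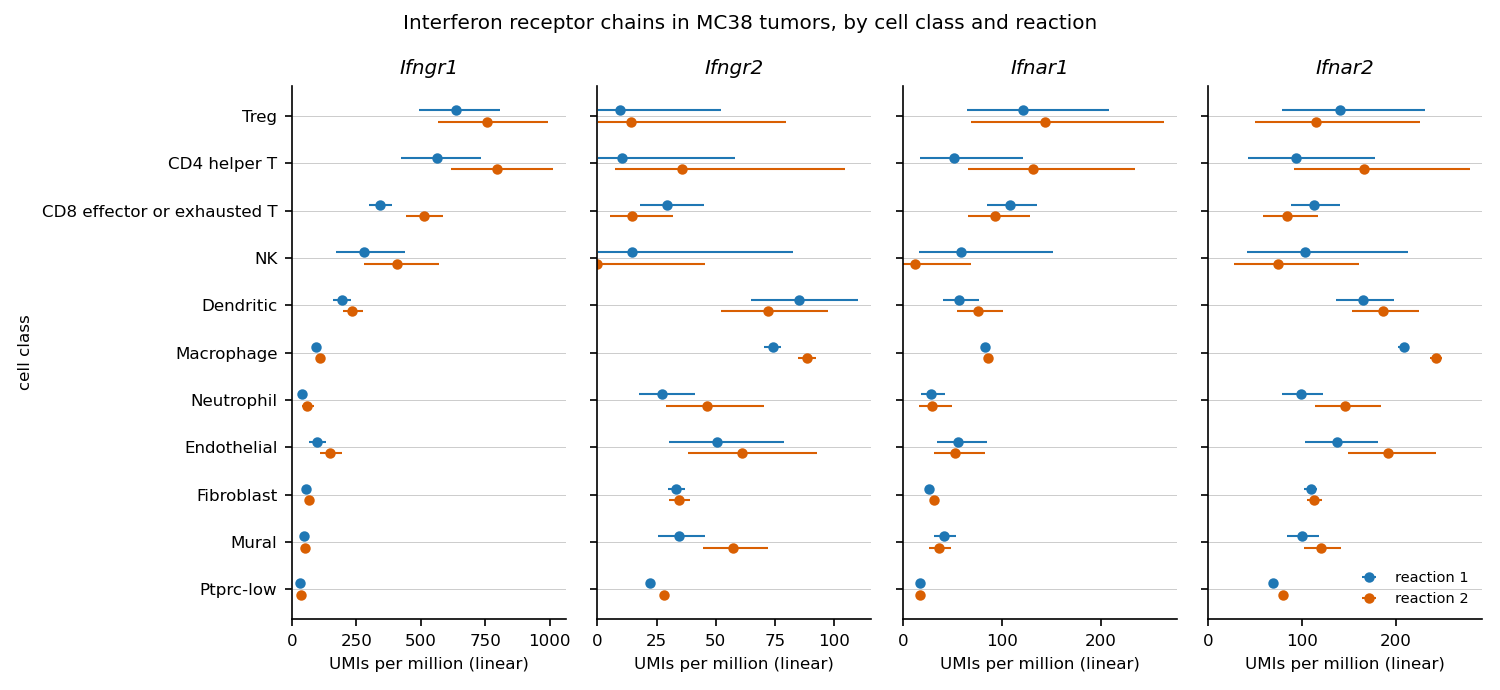
Level of each receptor chain (x axis, CPM of the class, linear) in the 11 MC38 classes (y axis), with a point for each of the 2 reactions and bars for the exact 95% Poisson interval of its count, which covers counting error only. Ifngr1 is highest in the 4 lymphocyte classes, from 281 upward, and Ifngr2 in macrophage-like and dendritic-like cells, from 72.2 to 88.3.

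Each class was tested against the mean of the other classes on summed counts with edgeR's quasi-likelihood test. Of 44 tests of the 4 members, 21 passed an adjusted p of 0.05, 12 of them higher and 9 lower, and 28 had an unadjusted p under 0.05. DESeq2 called 25, of which 14 were higher and 11 lower. The marker gate gives no T subsets, so only part of the calls could be compared with it. Over MC38 and TDLN classes together, 5 of those calls stayed with the gate, 11 were lost and 1 turned sign. Not all of these losses are named in the paragraphs below. The share of all 10487 genes called differed much between classes. It was 58.1% in Ptprc-low (39.4% higher and 18.7% lower), 41.5% in fibroblast-like (31% higher and 10.5% lower), 30.1% in macrophage-like (21.1% higher and 9.04% lower) and 26.9% in mural-like (20.4% higher and 6.43% lower) cells. It was 21.7% in CD8 effector or exhausted T-like (15.8% higher and 5.84% lower), 20.3% in dendritic-like (15.9% higher and 4.48% lower), 19.8% in neutrophil-like (14.6% higher and 5.16% lower) and 18.4% in endothelial-like (14.9% higher and 3.51% lower) cells, and 9.45% in Treg-like (6.24% higher and 3.21% lower), 8.96% in CD4 helper T-like (6.39% higher and 2.57% lower) and 5.24% in NK-like (3.69% higher and 1.55% lower) cells. The median log2 fold of all genes ranged from −0.31 in NK-like to 0.33 in Ptprc-low cells, and with DESeq2's size factors it was −0.06 and −0.02 there, so a fold of a member is to be read against these medians. In Ptprc-low cells 67.9% of the genes called were higher, against 47.5% with DESeq2, and in macrophage-like cells the shares were 70.0% and 49.6%.

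Ifngr1 was called in 10 of the 11 classes. Its log2 fold was 2.14 (SE 0.22, adjusted p = 2.95e-08) in CD4 helper T-like, 2.07 (SE 0.22, adjusted p = 8.08e-08) in Treg-like, 1.54 (SE 0.17, adjusted p = 3.73e-08) in CD8 effector or exhausted T-like and 1.17 (SE 0.28, adjusted p = 0.00896) in NK-like cells, against median folds of all genes of −0.18, −0.16, 0.19 and −0.31. The first 3 of these folds stayed between 1.43 and 2.27 with either reaction left out, and the NK-like fold was 1.29 without reaction 1 and 0.996 without reaction 2. Dendritic-like cells were higher by 0.70 (SE 0.18, adjusted p = 0.00525), by 1.61 within isotype and 1.06 within CPI barcodes, and the call was lost with classes set by marker gate (0.038, adjusted p = 1). Ptprc-low cells were lower by −2.02 (SE 0.19, adjusted p = 1.29e-09), mural-like by −1.83 (SE 0.22), neutrophil-like by −1.70 (SE 0.25) and fibroblast-like cells by −1.15 (SE 0.18). Within isotype barcodes the neutrophil-like (−0.68, adjusted p = 0.147) and fibroblast-like (−0.48, adjusted p = 0.0721) calls were lost, and the neutrophil-like call was also lost at a finer clustering (−0.77, adjusted p = 0.0931). The Ptprc-low fold was −1.48 within isotype and −2.66 within CPI barcodes. In endothelial-like cells the fold was −0.43 (95% interval −0.90 to 0.04, adjusted p = 0.232). The call in macrophage-like cells, −0.49 (SE 0.17, adjusted p = 0.0309), was lost without the NK sums (−0.32, adjusted p = 0.151) and turned to 0.38 (adjusted p = 0.0600) within isotype barcodes, whereas it was −1.02 within CPI barcodes. Within CPI barcodes alone the CD8 effector or exhausted T-like fold was 1.63, and within isotype barcodes, which held 18 and 16 of these cells, 1.43 (adjusted p = 0.0515). The 3 other lymphocyte classes were too small to test within isotype barcodes, for any member. CD4 helper T-like cells held 3 and 2 isotype barcodes, Treg-like cells 18 and 7 and NK-like cells 6 and 9. NK-like cells, with 4 and 9 CPI barcodes, could not be tested within CPI barcodes either.

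Ifngr2 had a different order. Macrophage-like cells held 73.9 and 88.3 CPM and dendritic-like cells 85.3 and 72.2, which overlapped, and both lay above endothelial-like cells at 50.4 and 61.1. Mural-like (34.5 and 57.2), neutrophil-like (27.4 and 46.5) and fibroblast-like cells (33.3 and 34.4) followed with overlapping reactions, and Ptprc-low cells had 22.4 and 28.0, which overlapped neutrophil-like cells. The lymphocyte classes rested on few molecules. CD8 effector or exhausted T-like cells held 26 Ifngr2 UMIs in 954 barcodes (29.2 and 14.7 CPM), CD4 helper T-like cells 4 in 135 barcodes (10.4 and 35.7), Treg-like cells 2 in 91 barcodes (9.37 and 14.3) and NK-like cells 1 in 46 barcodes (14.8 and 0). Over both reactions the exact Poisson intervals ran from 15.6 to 34.9 CPM in CD8 effector or exhausted T-like, from 1.37 to 40.9 in Treg-like and from 0.170 to 37.5 in NK-like cells, so the order among lymphocyte classes was not detectable at this depth.

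Only the 2 classes at the top were called for Ifngr2, macrophage-like at a log2 fold of 1.72 (SE 0.20, adjusted p = 5.63e-08) and dendritic-like at 1.67 (SE 0.27, adjusted p = 2.53e-05). The mean of the other classes contained the NK sums, with 1 UMI. Without these sums the folds were 1.54 and 1.46, and without reaction 1, which leaves NK-like cells at 0, they were 2.74 and 2.41. Within isotype barcodes they were 1.22 in both classes, and within CPI barcodes 1.16 and 2.04, all past the threshold. With the marker gate the dendritic-like fold of 1.82 did not pass (adjusted p = 0.254). The fold in Treg-like cells was −1.90 (95% interval −3.77 to −0.03, adjusted p = 0.228), in CD4 helper T-like cells −0.73 (−2.30 to 0.83) and in CD8 effector or exhausted T-like cells −0.52 (−1.34 to 0.31, adjusted p = 0.426), so none of the lymphocyte classes passed the test for lower Ifngr2. Markers of macrophages were present in every class. They summed to 24154 CPM in macrophage-like, 5490 in dendritic-like, 5367 in neutrophil-like, 4268 in NK-like, 2676 in mural-like, 2225 in fibroblast-like, 1608 in endothelial-like, 1260 in CD8 effector or exhausted T-like, 1172 in CD4 helper T-like, 974 in Treg-like and 72.3 in Ptprc-low cells. The part of RNA from other cells in the Ifngr2 values of lymphocyte and dendritic-like classes was not tested.

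The 2 chains of the IFN-γ receptor were thus present in very different proportions, which are ratios of UMI counts and not of protein. For each Ifngr2 UMI there were 60.5 Ifngr1 UMIs in Treg-like, 30.2 in CD4 helper T-like and 17.0 in CD8 effector or exhausted T-like cells, with single reactions at 68.0 and 53.0, 54.0 and 22.3, and 11.7 and 34.7. In NK-like cells 52 Ifngr1 UMIs stood against 1. The ratio fell to 2.67 in dendritic-like, 2.17 in endothelial-like, 1.78 in fibroblast-like, 1.38 in neutrophil-like, 1.34 in Ptprc-low, 1.23 in macrophage-like and 1.10 in mural-like cells. Both reactions of the T-like classes, at 11.7 and above, lay far from those of the 7 other classes, between 0.901 and 3.23. Within T-like barcodes that could not be given a subset, which were kept out of the tests and carried 15762 CPM of macrophage markers, the ratio was 2.99.

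**Figure D2:**
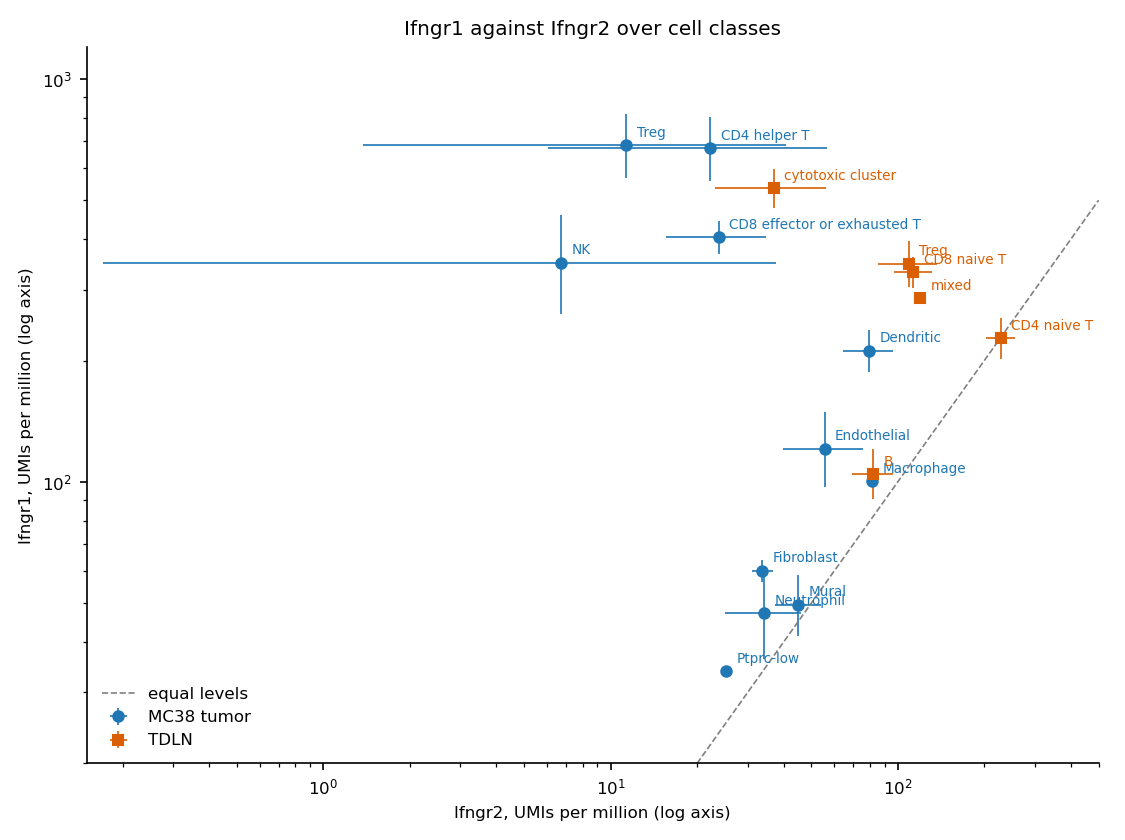
Ifngr1 (y axis) against Ifngr2 (x axis), both as CPM over all reactions of a tissue on log axes, for the MC38 classes (circles) and TDLN classes (squares), with exact 95% Poisson intervals and a dashed line of equal levels. T-like and NK-like classes of the tumor and the TDLN cytotoxic cluster lie upper left, the lymph node CD4 naive T-like class lies on the line, and the 1.10 to 2.67 ratios of the remaining tumor classes lie beside it.

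The type I receptor chains spanned a narrower range of levels than Ifngr1. Ifnar1 was 122 and 143 CPM in Treg-like, 108 and 93.4 in CD8 effector or exhausted T-like, 52.03 and 131 in CD4 helper T-like and 83.2 and 85.7 in macrophage-like cells. Dendritic-like cells (56.4 and 75.6) and endothelial-like cells (55.7 and 52.8) came next, then mural-like cells (41.5 and 36.2), and NK-like cells ranged from 12.4 to 59.2. Fibroblast-like (26.6 and 31.8) and neutrophil-like cells (28.6 and 29.6) overlapped. Ptprc-low cells had the lowest mean, at 17.0 and 16.9, and NK-like cells lay below them in reaction 2, at 12.4. The chain was higher in Treg-like (log2 fold 1.13, SE 0.35, adjusted p = 0.0384), CD8 effector or exhausted T-like (0.97, SE 0.20, adjusted p = 6.63e-04) and macrophage-like cells (0.94, SE 0.14, adjusted p = 6.23e-06). It was lower in Ptprc-low (−1.42, SE 0.18, adjusted p = 1.29e-07), neutrophil-like (−0.81, SE 0.26, adjusted p = 0.0298) and fibroblast-like cells (−0.63, SE 0.17, adjusted p = 0.00395). Within isotype barcodes the calls in CD8 effector or exhausted T-like (0.95, adjusted p = 0.392), neutrophil-like (−0.49, adjusted p = 0.437) and fibroblast-like cells (−0.42, adjusted p = 0.196) were lost. The Treg-like call was lost at a finer clustering (1.05, adjusted p = 0.0696). Within CPI barcodes the macrophage-like fold was −0.04, and the neutrophil-like fold turned to 0.25 at a finer clustering. In mural-like cells the fold of −0.51 did not pass with edgeR (adjusted p = 0.0659), but it did with reaction as a block (adjusted p = 0.0391) and with DESeq2 (adjusted p = 0.0215).

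Ifnar2 was 208 and 243 CPM in macrophage-like cells, 165 and 186 in dendritic-like cells and 138 and 192 in endothelial-like cells, the last 2 overlapping. CD4 helper T-like (93.7 and 167), Treg-like (140.5 and 115), neutrophil-like (98.9 and 146), fibroblast-like (109 and 113), mural-like (99.9 and 121), CD8 effector or exhausted T-like (112 and 83.6) and NK-like cells (104 and 74.1) formed an overlapping range that reached into that of endothelial-like cells. Ptprc-low cells had the lowest mean, at 68.8 and 80.1, and overlapped NK-like cells, which lay below them in reaction 2. Ifnar2 was higher in macrophage-like (log2 fold 1.11, SE 0.14, adjusted p = 3.05e-07) and dendritic-like cells (0.71, SE 0.17, adjusted p = 0.00345) and lower in Ptprc-low cells (−0.46, SE 0.16, adjusted p = 0.0142). The dendritic-like call was lost within CPI barcodes (0.38, adjusted p = 0.661), with barcodes under 2500 genes (0.31, adjusted p = 0.328) and with the marker gate (0.0028, adjusted p = 1), and the Ptprc-low call with no filter on low counts (−0.37, adjusted p = 0.0781), with the gate (−0.29, adjusted p = 0.452) and within CPI barcodes (−0.49, adjusted p = 0.0759). Ifnar2 UMIs exceeded Ifnar1 UMIs 4.4-fold in Ptprc-low, 4.00-fold in neutrophil-like, 3.86-fold in fibroblast-like and 2.67-fold in macrophage-like cells, and the chains were level in Treg-like (1.00) and CD8 effector or exhausted T-like cells (0.991).

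Level in CPM and number of molecules per cell gave different orders, because Ptprc-low barcodes were by far the deepest, with a median of 21731 UMIs against 1030 in CD8 effector or exhausted T-like barcodes. Per 100 barcodes, Ptprc-low cells held 78.5 UMIs of Ifngr1, 58.5 of Ifngr2, 39.2 of Ifnar1 and 173 of Ifnar2. CD8 effector or exhausted T-like cells held 46.3 of Ifngr1 and 2.73 of Ifngr2, macrophage-like cells 44.4 and 35.9, and Treg-like cells 133 and 2.20. Ptprc-low cells were therefore lowest in Ifngr1 as a share of their RNA but above CD8 effector or exhausted T-like cells in Ifngr1 UMIs per barcode.

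Around the receptors, ligand and signaling genes also differed by class. Ifng, the type II ligand, was higher in CD8 effector or exhausted T-like (log2 fold 6.94, SE 0.25), CD4 helper T-like (5.57, SE 0.59), Treg-like (5.11, SE 0.64) and NK-like cells (3.99, SE 0.94), the classes highest in Ifngr1. Ifnb1, a type I ligand, was higher in macrophage-like (5.31, SE 0.39) and dendritic-like cells (3.87, SE 0.93), the classes highest in Ifngr2 and Ifnar2. Of the kinase genes that carry the signal, Jak1 (−1.17, SE 0.17), Jak2 (−2.60, SE 0.20) and Tyk2 (−1.50, SE 0.27) were all lower in Ptprc-low cells, against a median of 0.33 over all genes. Jak1 was lower in dendritic-like (−0.66, SE 0.20) and macrophage-like cells (−0.78, SE 0.17), whereas Tyk2 was higher in both (2.32, SE 0.32, and 0.63, SE 0.23). Jak2 was higher in dendritic-like (1.93, SE 0.18), CD4 helper T-like (1.89, SE 0.31) and Treg-like cells (1.18, SE 0.35).

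Of 10 genes known as type I interferon targets, all 10 were higher in macrophage-like cells (median log2 fold 2.06 against 0.13 over all genes), led by Ifit3, Rsad2 and Rtp4, and none was higher in CD4 helper T-like, CD8 effector or exhausted T-like, NK-like or Treg-like cells, where 2, 3, 2 and 1 of the 10 were lower against 2.57%, 5.84%, 1.55% and 3.21% of all genes. In neutrophil-like cells 7 of the 10 were higher (median 1.19 against 0.18) and in dendritic-like cells 6 (median 1.23 against 0.086). Of all genes, 21.1% were higher in macrophage-like, 14.6% in neutrophil-like and 15.9% in dendritic-like cells. In Ptprc-low cells, the class with the lowest mean Ifnar1, 6 were higher and 3 lower (median 0.68 against 0.33), where 39.4% of all genes were higher and 18.7% lower. Of 11 genes known as IFN-γ targets, 6 were higher in macrophage-like and 6 in dendritic-like cells, including Cxcl9, a T-cell-attracting chemokine, and Ciita, the activator of MHC class II genes. The medians were 0.59 against 0.13 over all genes and 1.01 against 0.086, and 21.1% and 15.9% of all genes were higher. In neutrophil-like cells 5 of the 11 were higher and 0 lower (median 0.90 against 0.18), where 14.6% of all genes were higher. In Ptprc-low cells 5 of these 11 were higher and 3 lower, where 39.4% of all genes were higher and 18.7% lower, with Cd274 (the gene of PD-L1) at −2.88 (SE 0.18). Feedback inhibitors split by gene, Socs3 being higher in 5 classes (macrophage-like, dendritic-like, fibroblast-like, mural-like and neutrophil-like) and lower in CD4 helper T-like cells. Il10rb, which lies between Ifnar2 and Ifnar1, was higher in macrophage-like (1.31, SE 0.17) and neutrophil-like cells (0.93, SE 0.25) and lower in Ptprc-low (−1.53, SE 0.21) and mural-like cells (−1.33, SE 0.28).

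The genes with the most similar class pattern were found by Pearson's r of log2 levels over the 11 MC38 classes, among 9902 genes and as a description only, since all points come from the same 2 reactions. For Ifngr1 they were Dip2b (0.984), Dnajb6 (0.984), Tex2 (0.979), Crem (0.976) and Mknk2 (0.973). For Ifngr2 they were BC028528 (0.948), Plekho1 (0.948), Clic4 (0.930), Cdc42ep4 (0.913) and Niban2 (0.910). Ifnar1 was followed by Tmem135 (0.963), Arhgap25 (0.960), Nfya (0.954), Il7r (0.948) and H4c4 (0.946), and Ifnar2 by Cyfip1 (0.923), Kcnk13 (0.915), Mtmr6 (0.914), Sdcbp (0.914) and Stab1 (0.910). Among the members themselves r was 0.807 for Ifngr1 with Ifnar1, 0.693 for Ifngr2 with Ifnar2, 0.530 for the type I pair and −0.49 for the type II pair. Every r with Ifngr2 uses its levels in NK-like, Treg-like and CD4 helper T-like cells, which rest on 1, 2 and 4 UMIs.

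In TDLNs, among the classes large enough to test, Ifngr1 was highest in a cytotoxic cluster and Ifngr2 in CD4 naive T-like cells. Few barcodes could be given to a class, and sums under 10 barcodes were left out, so reaction 3 contributed only 19 CD8 naive T-like barcodes. The cytotoxic cluster, led by Gzma, Klrc1, Klre1 and Xcl1 and carrying Trac, held 38 and 131 barcodes and was not named as NK or T. In reactions 1 and 2 Ifngr1 was 438 and 570 CPM in the cytotoxic cluster, 399 and 330 in Treg-like, 277 and 356 in CD8 naive T-like, 179 and 237 in CD4 naive T-like and 99.7 and 107 in B-like cells. Treg-like and CD8 naive T-like cells overlapped, and reaction 3 gave 139 for the latter, on 6 UMIs. The mixed barcodes, in which cell types could not be told apart, held 279, 299 and 255.

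Ifngr2 was 230.1 and 226 CPM in CD4 naive T-like cells, above every other class tested. It was 102 and 115 in CD8 naive T-like cells (162 in reaction 3), 79.9 and 121 in Treg-like and 72.5 and 87.5 in B-like cells, which overlapped, and 21.9 and 37.9 in the cytotoxic cluster, below the other classes tested. The ratio of Ifngr1 to Ifngr2 UMIs was 14.5 in the cytotoxic cluster, 3.19 in Treg-like, 2.93 in CD8 naive T-like, 1.28 in B-like and 0.997 in CD4 naive T-like cells. Ifnar1 was 119.8 and 139 in Treg-like cells and lay between 37.9 and 81.2 in the other classes of reactions 1 and 2. Ifnar2 in reactions 1 and 2 was 79.9 and 70.4 in Treg-like, 80.3 and 60.1 in cytotoxic, 67.3 and 42.3 in CD8 naive T-like, 44.0 and 48.7 in CD4 naive T-like and 40.8 and 41.6 in B-like cells, with overlap between neighbors down to the CD4 naive T-like class. In reaction 3 the 19 CD8 naive T-like barcodes gave 185, above all of these. A cluster of 23 γδ T-like barcodes, too small for the test, held 737 Ifngr1, 235 Ifngr2, 78.4 Ifnar1 and 47.1 Ifnar2 CPM over the 3 reactions, so its Ifngr1 and Ifngr2 values were above those of the classes named as highest, on 47 and 15 UMIs.

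**Figure D3:**
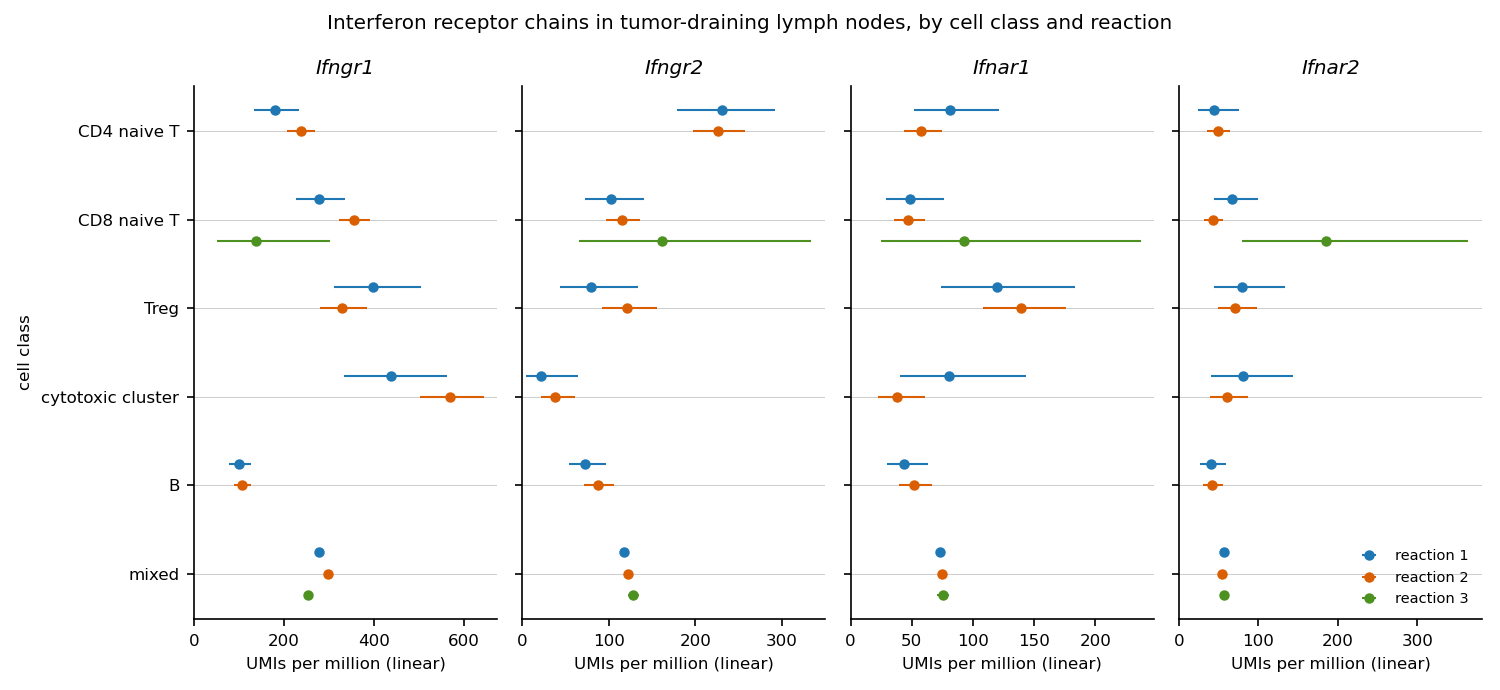
Level of each receptor chain (x axis, CPM of the class, linear) in the TDLN classes (y axis), with a point for each reaction in which the class had at least 10 barcodes and bars for the exact 95% Poisson interval of its count. Of the classes plotted, Ifngr2 is highest in CD4 naive T-like cells, at 230.1 and 226, and lowest in the cytotoxic cluster, at 21.9 and 37.9.

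Of 20 tests of the members across the 5 TDLN classes, 5 passed an adjusted p of 0.05 and 10 had an unadjusted p under 0.05; DESeq2 also called 5. Of all 7191 genes tested, the share called was 37.7% in B-like (19.6% higher and 18.1% lower), 9.18% in Treg-like (7.23% higher and 1.95% lower), 7.62% in CD8 naive T-like (4.66% higher and 2.96% lower), 7.06% in CD4 naive T-like (4.34% higher and 2.73% lower) and 5.79% in cytotoxic (4.41% higher and 1.38% lower) cells. The cytotoxic cluster was higher in Ifngr1 (log2 fold 1.31, SE 0.17, adjusted p = 2.33e-06) and lower in Ifngr2 (−1.76, SE 0.30, adjusted p = 1.32e-04). CD4 naive T-like cells were higher in Ifngr2 (1.61, SE 0.18, adjusted p = 1.02e-07), B-like cells lower in Ifngr1 (−1.73, SE 0.19, adjusted p = 9.22e-09, but −0.15 and adjusted p = 1 with the marker gate, which compared B-like with T-like cells alone), and Treg-like cells higher in Ifnar1 (1.15, SE 0.23, adjusted p = 6.02e-04). Ifnar2 was called in no class, with folds between −0.59 and 0.39. With reaction as a block 9 of the 20 passed, adding Ifngr1 in CD8 naive T-like cells (0.51, adjusted p = 9.24e-07) and CD4 naive T-like cells (−0.34, adjusted p = 0.0150), and Ifnar1 (−0.51, adjusted p = 0.0179) and Ifnar2 (−0.56, adjusted p = 0.0135) in B-like cells. This fit also called more of all genes, 13.6% in CD8 naive T-like, 12.9% in CD4 naive T-like and 45.3% in B-like cells. With no upper limit of genes per barcode Ifngr2 in the cytotoxic cluster was −0.72 (adjusted p = 0.109). Without reaction 2, the larger in named barcodes, the calls of the cytotoxic cluster were lost (Ifngr1 1.17, adjusted p = 0.126; Ifngr2 −2.26, adjusted p = 0.266), as was that of Ifnar1 in Treg-like cells (0.73, adjusted p = 0.835).

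Treg-like cells were the only class tested in both tissues. Side by side, they held 685 Ifngr1 and 11.3 Ifngr2 CPM in MC38 tumors, and 348 and 109 in the lymph nodes of TRAMP-C2-bearing mice. The matrices differ in tumor model, gene annotation and depth, so no test was made between tissues. Among other pathway genes of TDLN Treg-like cells, Jak2 (1.64, SE 0.25), the feedback inhibitor Socs1 (1.14, SE 0.27), Igtp (1.21, SE 0.37) and Isg15 (2.30, SE 0.33) were higher. In CD8 naive T-like cells 3 of the 8 IFN-γ targets tested were higher (Igtp, Gbp2 and Irf1), in CD4 naive T-like cells Igtp was higher (1.44, SE 0.32) and Cd274 lower (−1.24, SE 0.28), and in the cytotoxic cluster none passed.

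By treatment, none of the receptor chains passed the test in MC38 tumors in the main fit, with classes set by clustering and reaction not a block. Some passed with reaction as a block or with classes set by marker gate, as given below. With the leading hashtag as treatment 1 passed, which is given below only as a count. The 4 treatments could be compared in the 3 classes that had at least 10 barcodes in each of the 8 sums, Ptprc-low, macrophage-like and fibroblast-like. Of 48 tests 0 passed an adjusted p of 0.05 with edgeR or with DESeq2, and 8 had an unadjusted p under 0.05 with edgeR. The smallest adjusted p was 0.0560, the log2 folds lay between −0.99 and 0.54, and their 95% intervals between −1.69 and 1.41. Of all genes, CPI against isotype called 7.58% in Ptprc-low, 3.68% in macrophage-like and 30.9% in fibroblast-like cells, CPI + ABT-317 against CPI 1.31%, 0.388% and 16.9%, isotype + ABT-317 against isotype 0.0131%, 0% and 4.46%, and CPI + ABT-317 against isotype + ABT-317 1.36%, 0.699% and 0.512%. In Ptprc-low cells 45.5% of the genes called for CPI against isotype were higher, and 59.6% with DESeq2. On simulated counts for macrophage-like cells under CPI against isotype, the test recovered 21.9% of genes changed 2-fold and 58.8% of those changed 4-fold, so changes of this size could be missed.

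The sums were very uneven. Ptprc-low cells numbered 82 and 37 barcodes under CPI, against 3570 and 3587 under isotype, 2032 and 1620 under CPI + ABT-317 and 2677 and 1912 under isotype + ABT-317. Macrophage-like cells numbered 68 and 45 under CPI against 4466 and 4342 under isotype, and fibroblast-like cells 1025 and 676 under CPI against 185 and 128 under isotype, 52 and 28 under CPI + ABT-317 and 46 and 16 under isotype + ABT-317.

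In Ptprc-low cells Ifngr1 was 32.8 and 39.3 CPM under isotype, 27.8 and 28.6 under CPI, 29.2 and 35.3 under CPI + ABT-317 and 31.4 and 35.6 under isotype + ABT-317. The groups were spread differently over the pair of Ptprc-low clusters named above, whose Ifngr1 levels were 54.4 and 17.5 CPM. Isotype barcodes numbered 4296 and 2830 in these clusters, CPI barcodes 51 and 67, CPI + ABT-317 barcodes 1788 and 1844 and isotype + ABT-317 barcodes 2172 and 2399, and the part of this in the treatment values was not tested. The CPI sums lay below both isotype sums, with a log2 fold of −0.48 (95% interval −0.93 to −0.04, adjusted p = 0.190), and with reaction as a block, where 16.8% of all genes were called, it passed (−0.46, adjusted p = 0.0494). When classes were set by a marker gate in place of clusters the sign turned, to 0.76 (adjusted p = 0.00746), in a fit that called 23.1% of all genes. The gated CPI barcodes carried T-cell markers at 129 and 176 CPM, against 2.72 and 2.07 under isotype and at most 0.954 in the CPI barcodes of the clustered class, and their part in the gated value was not tested. Ifngr2 in the same cells was 22.2 and 27.1 under isotype and 21.2 and 27.7 under CPI, a fold of −0.17 (−0.77 to 0.43). Ifnar1 was 18.0 and 18.3 against 21.9 and 22.9 (0.17, −0.26 to 0.59), and Ifnar2 71.0 and 82.5 against 84.8 and 91.6 (0.07, −0.25 to 0.39). With ABT-317 added to isotype, Ifnar1 (−0.15, adjusted p = 0.707) and Ifngr2 (0.13, adjusted p = 0.871) did not pass the main fit. They passed with the block (adjusted p = 0.0214 and 0.0136), which called 28.4% of all genes in this contrast against 0.0131% without it.

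In macrophage-like cells Ifnar1 was 85.8 and 87.5 CPM under isotype and 60.2 and 63.8 under CPI, on 21 and 10 UMIs. The groups did not overlap, and the log2 fold was −0.70 (95% interval −1.22 to −0.17, adjusted p = 0.138). With barcodes under 2500 genes Ifnar1 was 102 and 97.9 under isotype and 70.7 and 86.8 under CPI. With the marker gate the groups were nearly level, at 61.7 and 62.8 under isotype and 61.3 and 61.0 under CPI. Ifngr1 was 96.1 and 109 under isotype, 83.1 and 83.0 under CPI, 72.3 and 102 under CPI + ABT-317 and 82.0 and 110.1 under isotype + ABT-317, with fold intervals that all included 0. With barcodes under 2500 genes the class held 368 and 221 CPI barcodes, against 68 and 45 here, and the order turned. Ifngr1 was then 133 and 165 under CPI and 104 and 115 under isotype. With the marker gate it was 117 and 142 under CPI and 75.8 and 86.7 under isotype. The gated CPI barcodes carried T-cell markers at 79.7 and 73.1 CPM, against 15.8 and 16.1 under isotype. Ifngr2 stayed between 70.2 and 94.7 in the 8 sums of the clustered class. Ifnar2 under CPI was 161 and 313, a spread as wide as that of all 8 sums. Markers differed between these sums. The 9 macrophage markers summed to 22082 and 28143 CPM under isotype, 10110 and 17988 under CPI, 16644 and 22318 under CPI + ABT-317 and 20025 and 24116 under isotype + ABT-317, and the fibroblast markers to 675 and 406 under isotype, 1605 and 1187 under CPI, 759 and 355 under CPI + ABT-317 and 691 and 483 under isotype + ABT-317. NK markers summed to 31.5 and 16.7 under isotype and 140.5 and 38.3 under CPI, and the part of these markers in the values was not tested.

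In fibroblast-like cells Ifngr2 was 43.9 and 44.8 CPM under isotype and 29.2 and 31.2 under CPI, which did not overlap. The log2 fold was −0.56 (95% interval −1.003 to −0.11, adjusted p = 0.0560), and it passed with reaction as a block (−0.56, adjusted p = 0.0338), where 36.8% of all genes were called. Ifngr1 was 61.6 and 72.7 under CPI and 41.6 and 46.0 under CPI + ABT-317, a fold of −0.63 (−1.18 to −0.08, adjusted p = 0.109). With isotype + ABT-317 against isotype all 4 chains were lower with an unadjusted p under 0.05, Ifnar1 by −0.99 (−1.69 to −0.28), Ifngr1 by −0.82 (−1.41 to −0.23), Ifngr2 by −0.72 (−1.36 to −0.09) and Ifnar2 by −0.57 (−1.001 to −0.13), and none passed the adjustment. Macrophage markers moved with these differences. All 9 were present in the fibroblast-like isotype sums, at 5728 and 7712 CPM, against 961 and 824 under CPI, 1833 and 590 under CPI + ABT-317 and 843 and 392 under isotype + ABT-317. The fibroblast markers of the class also differed, at 21115 and 24620 CPM under isotype, 71073 and 86528 under CPI, 28976 and 39948 under CPI + ABT-317 and 14221 and 17869 under isotype + ABT-317. The part of both marker groups in the receptor values was not tested.

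**Figure D4:**
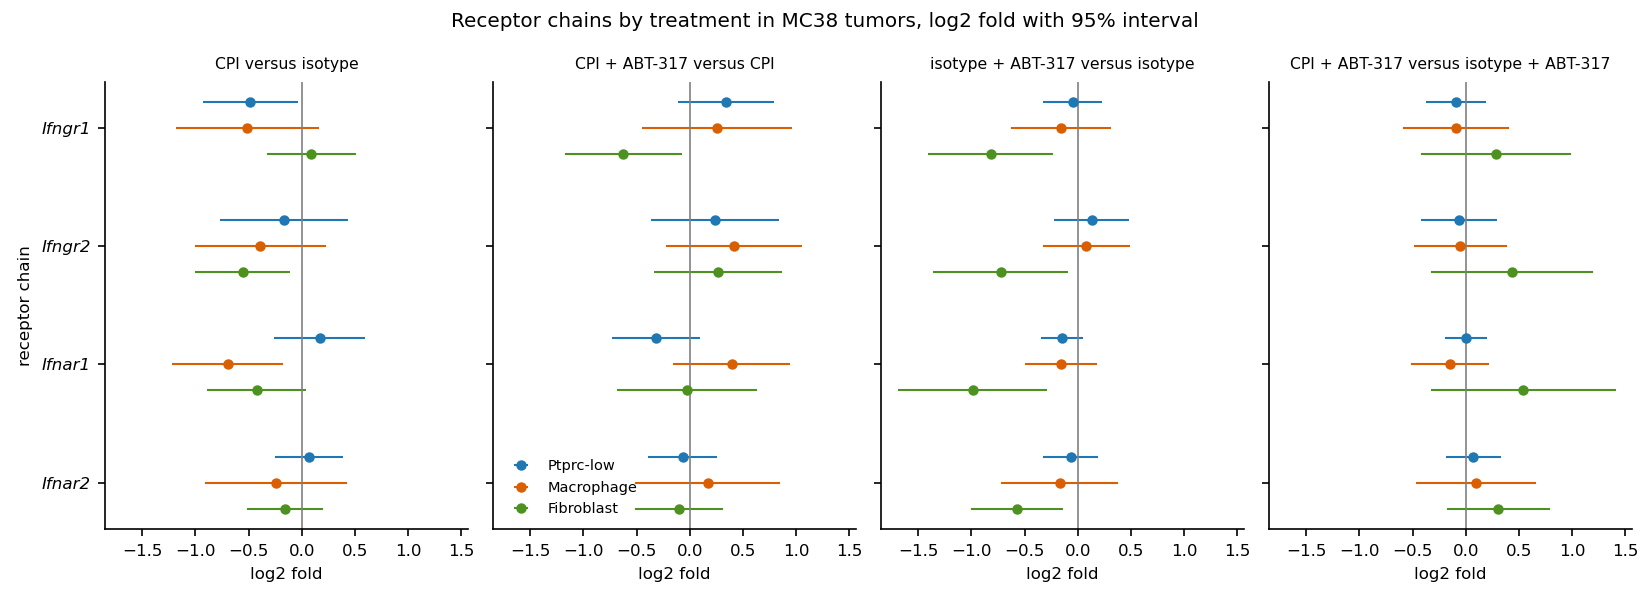
Log2 fold of each receptor chain (y axis) in 4 treatment contrasts (panels) for Ptprc-low, macrophage-like and fibroblast-like cells of MC38 tumors, with 95% intervals from edgeR on 2 reactions per group. The folds lie between −0.99 and 0.54, and none passed an adjusted p of 0.05.

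T-like classes did not have 10 barcodes in every one of the 8 sums and were not tested by treatment. CD8 effector or exhausted T-like cells held 329 and 493 Ifngr1 CPM in the 406 and 267 CPI barcodes and 312 and 385 in the 18 and 16 isotype barcodes, the CPI value being the higher in each reaction while the groups overlapped, and 6 or fewer barcodes in each reaction under either ABT-317 treatment.

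While the receptor chains did not pass the test in the main fit, IFN-γ targets in Ptprc-low cells differed by treatment in the same fit. This contrast holds for the fit without reaction as a block. With the block Ifngr1 passed for CPI against isotype in these cells, and Ifnar1 and Ifngr2 for isotype + ABT-317 against isotype, as given above. Under CPI against isotype 8 of 10 targets tested were higher and none lower, where 3.45% of all genes were higher, with a median log2 fold of 0.96 against −0.07 over all genes. Cd274 rose by 2.38 (SE 0.26), Cxcl9 by 1.67 (SE 0.28), Cxcl10 by 1.41 (SE 0.11), Igtp by 1.22 (SE 0.17), the transcription factor gene Irf1 by 1.07 (SE 0.09), and the GTPase genes Gbp3, Irgm1 and Gbp2 by 0.84, 0.79 and 0.71. Irf9 (1.07, SE 0.21), a subunit of the factor that acts downstream of type I interferon, rose, as did Socs1 (0.86, SE 0.15) of the feedback inhibitors and, of 10 type I targets, Mx1 (2.81, SE 0.64) and Bst2 (0.77, SE 0.09). These values rest on the 82 and 37 CPI barcodes, which lay more in the second Ptprc-low cluster than isotype barcodes did. Fibroblast markers of the class summed to 2088 and 2227 CPM under isotype, 1410 and 773 under CPI, 1496 and 1462 under CPI + ABT-317 and 1522 and 1679 under isotype + ABT-317, and the part of clusters and markers in the target values was not tested.

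With ABT-317 added to CPI, 2 of the 10 IFN-γ targets fell, Irf1 by 0.72 (SE 0.09) and Cd274 by 1.33 (SE 0.25) on the log2 scale, and the other targets did not pass. With reaction as a block, where 10.2% of all genes were called, Cxcl10 (−0.47, SE 0.07) was also lower and the proteasome subunit gene Psmb8 (0.47, SE 0.04) higher. With ABT-317 added to isotype none of the 10 passed without the block, in a fit that called 2 of 15241 genes. With the block, which called 28.4% of all genes (15.8% higher and 12.6% lower), 4 of the 10 were lower, Cxcl9 by −0.46 (SE 0.10), Gbp2 by −0.27, Irf1 by −0.21 and Igtp by −0.15, and Cxcl10 (0.38, SE 0.04) and Psmb8 (0.11, SE 0.02) were higher. In that fit 8 of the 10 type I targets were higher, by 0.17 to 0.48, with Isg15 at 0.48 (SE 0.06). With ABT-317 added to CPI, the block gave 1 of the 10 type I targets higher and 2 lower, against 7.24% and 2.97% of all genes. Between the ABT-317 groups, CPI + ABT-317 against isotype + ABT-317, 8 of 10 IFN-γ targets were again higher without the block, where 1.02% of all genes were higher, with a median of 0.81 against −0.01 over all genes: Cxcl9 rose by 1.48 (SE 0.17), Igtp by 1.22 (SE 0.13), Cd274 by 1.10 (SE 0.18), Gbp2 by 0.96 (SE 0.10), Irgm1 by 0.82 (SE 0.14), Gbp3 by 0.81 (SE 0.10), Cxcl10 by 0.59 (SE 0.11) and Irf1 by 0.57 (SE 0.08). Irf9 (0.62), Socs1 (0.73), Bst2 (0.52) and Il20rb (1.33), a chain of the IL-20 receptor, also rose. With the block, which called 30.6% of all genes in this contrast, 9 of the 10 were higher, and for CPI against isotype 8 were higher and Psmb8 was lower (−0.35, SE 0.04). Without the block, the folds of the 4 receptor chains for CPI + ABT-317 against isotype + ABT-317 lay between −0.09 and 0.07.

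**Figure D5:**
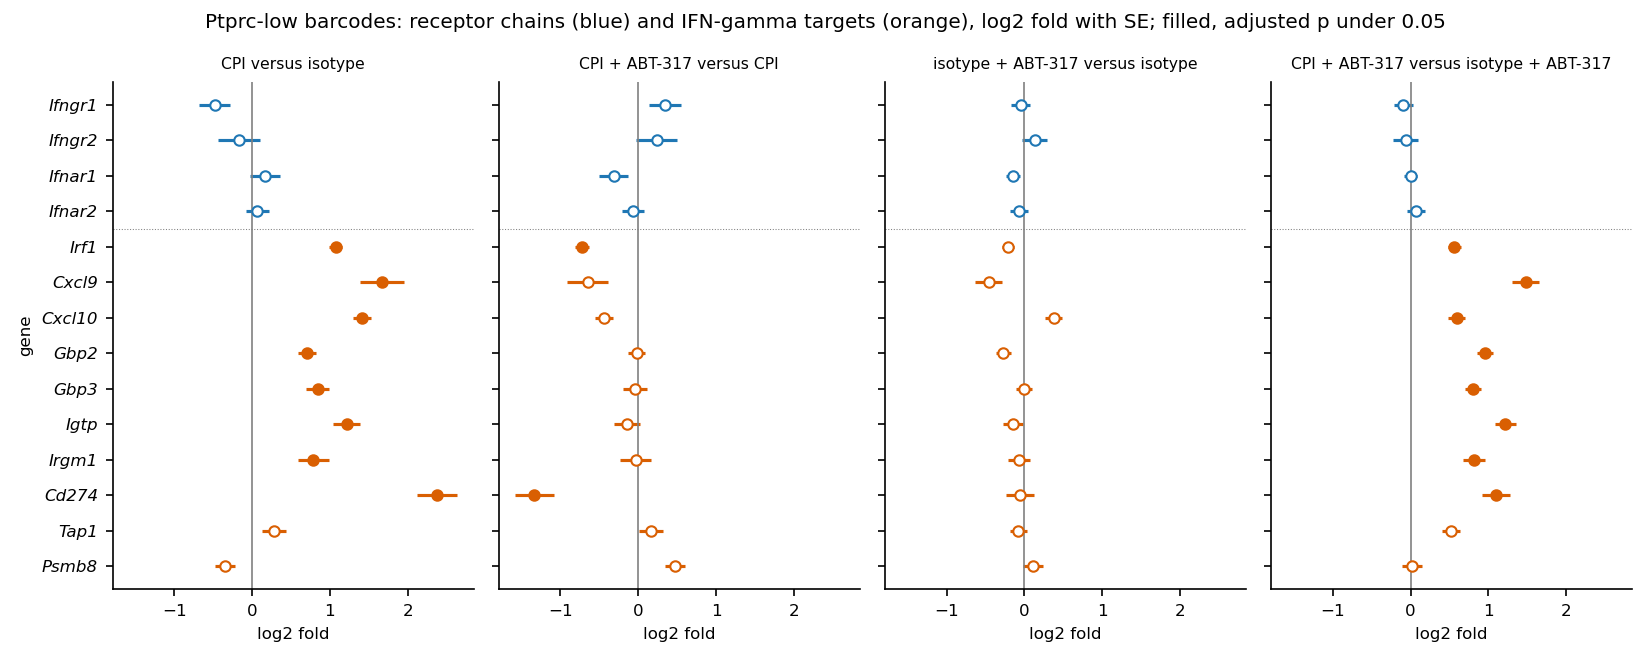
Log2 fold with its SE (x axis) of the 4 receptor chains (blue) and the 10 IFN-γ targets tested (orange) in Ptprc-low cells for 4 treatment contrasts (panels), filled where the adjusted p was under 0.05 in the fit without reaction as a block. In CPI against isotype and in CPI + ABT-317 against isotype + ABT-317, 8 of the 10 targets are filled and to the right of 0, and no receptor chain is filled in any panel.

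In macrophage-like cells, where 1.51% of all genes were higher with CPI, 2 of 11 IFN-γ targets rose, Irf1 by 1.35 (SE 0.21) and Gbp2 by 1.05 (SE 0.25), and Bst2 of the type I targets fell by 0.94 (SE 0.20), in the sums whose fibroblast and macrophage markers are given above. For CPI + ABT-317 against CPI, Cxcl9 (1.48, SE 0.23) and Bst2 (1.22, SE 0.20) were higher. For CPI + ABT-317 against isotype + ABT-317, where 0.573% of all genes were higher, 3 of the 11 were higher, Cxcl9 (1.73, SE 0.20), Gbp2 (1.33, SE 0.22) and Irf1 (1.07, SE 0.19), Socs1 was higher (2.17, SE 0.32), and Ifit2 of the type I targets was lower (−1.18, SE 0.22). With reaction as a block 7 of the 11 IFN-γ targets were higher and 4 of the 10 type I targets lower in this last contrast, against 3.23% and 1.17% of all genes. For CPI against isotype the block gave 3 of 11 IFN-γ targets higher and 1 lower and 4 of 10 type I targets lower, against 4.85% of all genes higher and 5.87% lower. For CPI + ABT-317 against CPI it gave 3 and 4 higher, against 4.11% of all genes. For isotype + ABT-317 against isotype 3 of 10 type I targets were higher, against 0.185% of all genes. In fibroblast-like cells, where 15.5% of all genes were lower with CPI, 3 of 10 IFN-γ targets were lower (Cd274 by −2.63, Psmb8 by −1.18 and Cxcl10 by −0.92), as were 8 of 9 type I targets, while Jak1 was higher (0.96, SE 0.20). For CPI + ABT-317 against CPI, where 8.42% of all genes were higher, 2 of 10 IFN-γ targets (Gbp2 and Psmb8) and 3 of 9 type I targets (Isg15, Bst2 and Rtp4) were higher and Jak1 was lower (−1.08, SE 0.22). The macrophage and fibroblast markers of these sums differed by treatment as given above.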

How the data were processed

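Raw UMI counts per gene and barcode were taken from the matrices the authors deposited, which were made with Cell Ranger (7.1.0 for TDLN and 8.0.1 for MC38 per the file headers; the submitters' processing notes name 3.1.0 and GRCm38, mm10). The 4 members and all lists were chosen with earlier results of these data known. Barcodes with under 200 genes or over 10% mitochondrial UMIs were dropped, as were TDLN barcodes of 2500 genes or more. MC38 hashtags were called by a mixture model on each antibody, treatments came from the deposited hashtag key, and barcodes with several hashtags were removed as doublets; no doublet caller was run and TDLN doublets were not removed. Cells were clustered on 2000 variable genes and the class markers, without the members and pathway genes (30 components, 15 neighbours, Leiden resolution 0.5). A cluster was named when at least 3 markers of a class lay 1.5-fold or more above the mean of the other clusters. The mean fold of its markers also had to be the highest of all classes. T-like clusters were named after a second clustering.

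Counts were summed per class and reaction (and treatment), sums under 10 barcodes were left out, and edgeR 4.0.16 in R 4.3.3 (TMM, quasi-likelihood test, Benjamini-Hochberg over all genes tested) gave log2 folds, standard errors and adjusted p-values. Each class was set against the mean of the others, and treatments were compared within a class over all 4 groups. Sums of the same reaction come from the same library, so a fit with reaction as a block was run as well and its value is given where it changed a call. Named genes were the 4 members, list genes past the threshold in treatment contrasts of the largest class, otherwise leading genes of a list, and the 5 most similar genes of each member. Alternatives were DESeq2 1.42.0, no low-count filter, resolution 1.0, classes by marker gate, a limit of 2500 genes, several-hashtag barcodes kept, the leading hashtag as treatment, and each reaction left out; isotype-only, CPI-only and NK-free class fits were added after seeing the data. The pipeline was tested on simulated data with 200 changed genes. Intervals of levels are exact Poisson and cover counting error only. The antibody panel held no row for IFN-γ receptor 1, so a planned protein readout was not run. Python 3.11.15, leidenalg 0.10.2 and scipy 1.17.1 were used. One pathway gene is not reported here.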

Additional observations from a re-analysis of the deposited data

Results flagged for a closer look

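In 12 of 48 pairs of MC38 classes compared under the same treatment contrast, both reactions of one class moved one way and both of the other class the opposite way. These differences between classes were not tested. No member passed the adjusted threshold in any of these contrasts in the main fit, although some did in other fits given below and in the results. The values that follow are log2 folds of the main fit.

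Ifngr1 under CPI against isotype was 0.091 in fibroblast-like cells against −0.51 in macrophage-like and −0.48 in Ptprc-low cells. The macrophage-like fold turned positive with barcodes under 2500 genes and with the marker gate, and the Ptprc-low fold with the gate. Under CPI + ABT-317 against CPI it was −0.63 in fibroblast-like and 0.34 in Ptprc-low cells, and under CPI + ABT-317 against isotype + ABT-317 it was 0.28 in fibroblast-like against −0.096 in macrophage-like and −0.093 in Ptprc-low cells. Ifngr2 under isotype + ABT-317 against isotype was −0.72 in fibroblast-like against 0.082 in macrophage-like and 0.13 in Ptprc-low cells.

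Ifnar1 under CPI against isotype was 0.17 in Ptprc-low against −0.42 in fibroblast-like and −0.70 in macrophage-like cells. It was 0.39 in macrophage-like and −0.32 in Ptprc-low cells under CPI + ABT-317 against CPI, and 0.54 in fibroblast-like against −0.145 in macrophage-like cells between the ABT-317 groups, where the macrophage-like difference of reaction 2 was almost 0. Ifnar2 under CPI against isotype was −0.16 in fibroblast-like and 0.068 in Ptprc-low cells. In 10 of the 12 pairs the fibroblast-like class, whose macrophage markers differed by treatment, was one side.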

How the results depend on the processing

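Few barcodes in the T-like, NK-like and TDLN classes, 2 reactions per MC38 group and the coupling of class with treatment limit these results. Of the 26 member folds called across classes, 18 lost the call under at least 1 alternative, most of them with the marker gate or within the barcodes of 1 treatment, and 3 turned sign, Ifngr1 and Ifnar1 in macrophage-like and Ifnar1 in neutrophil-like cells; the cause was not tested.

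The count of members called across MC38 classes, 21 of 44, was 7 of 32 with classes set by marker gate, which gives no T subsets, 13 of 36 with barcodes under 2500 genes and 10 of 28 within isotype barcodes; fewer classes could be tested in each. In TDLNs the count was 5 of 20, 9 with reaction as a block, 0 of 4 with the gate, and between 2 and 7 with single reactions left out. For CPI against isotype it was 0 of 12, 2 with reaction as a block and 1 with the gate. For CPI + ABT-317 against CPI it was 0, and 4 of 12 with the gate, namely Ifngr1 in macrophage-like (−0.98) and Ptprc-low cells (−0.93) and Ifnar1 in fibroblast-like (−0.49) and Ptprc-low cells (−0.49), where the gate called 970 of 11972 genes in macrophage-like, 4167 of 15954 in Ptprc-low and 7615 of 14286 in fibroblast-like cells; for isotype + ABT-317 against isotype it was 2 with the block and 1 with the leading hashtag. Sums of a reaction share its library, and the block changed no other call of a member by treatment or in TDLNs than those given here and in the results, while it raised the number of all genes called in every treatment contrast. With either MC38 reaction left out no spread remained to test, and those values carry no p. DESeq2 gave no adjusted p for 1 Ifnar1 treatment value, which was left out.

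With DESeq2 the fold reversed for Ifnar1 in endothelial-like cells (0.013) and Ifngr2 in Ptprc-low cells (−0.13) across MC38 classes, and Ifnar1 in fibroblast-like cells (0.0096) for CPI + ABT-317 against CPI. With no filter on low counts it reversed for Ifnar1 in Ptprc-low cells (−0.012) for CPI + ABT-317 against isotype + ABT-317. With reaction as a block it reversed for Ifnar2 in CD8 naive T-like cells (−0.036) across TDLN classes. At Leiden resolution 1.0 it reversed for Ifnar2 in fibroblast-like cells (−0.049) and Ifnar1 in neutrophil-like cells (0.25) across MC38 classes, and Ifngr2 in Treg-like cells (−0.0014) across TDLN classes. With classes set by marker gate it reversed for Ifnar1 in dendritic-like cells (−0.11), Ifngr1 in endothelial-like cells (0.66), Ifnar1 in endothelial-like cells (0.51), Ifngr1 in macrophage-like cells (0.073) and Ifnar1 in mural-like cells (0.51) across MC38 classes. There it also reversed for Ifnar2 in B-like cells (0.084) and Ifnar1 in B-like cells (0.021) across TDLN classes. There it also reversed for Ifnar2 in fibroblast-like cells (0.28), Ifnar1 in fibroblast-like cells (0.30), Ifngr1 in macrophage-like cells (0.60), Ifngr2 in macrophage-like cells (0.050), Ifngr1 in Ptprc-low cells (0.76) and Ifngr2 in Ptprc-low cells (0.052) for CPI against isotype. There it also reversed for Ifngr1 in macrophage-like cells (−0.98), Ifnar2 in macrophage-like cells (−0.068), Ifnar1 in macrophage-like cells (−0.28), Ifngr2 in macrophage-like cells (−0.096) and Ifngr1 in Ptprc-low cells (−0.93) for CPI + ABT-317 against CPI. There it also reversed for Ifngr1 in fibroblast-like cells (0.12), Ifngr2 in fibroblast-like cells (0.11) and Ifngr2 in macrophage-like cells (−0.22) for isotype + ABT-317 against isotype. There it also reversed for Ifngr1 in fibroblast-like cells (−0.068), Ifnar1 in fibroblast-like cells (−0.084), Ifngr2 in fibroblast-like cells (−0.099), Ifngr1 in macrophage-like cells (0.12), Ifnar1 in macrophage-like cells (0.10), Ifngr2 in macrophage-like cells (0.18) and Ifngr2 in Ptprc-low cells (0.019) for CPI + ABT-317 against isotype + ABT-317. With barcodes under 2500 genes it reversed for Ifngr1 in macrophage-like cells (0.42) for CPI against isotype, and Ifngr1 in macrophage-like cells (−0.67) for CPI + ABT-317 against CPI. With several-hashtag barcodes kept it reversed for Ifnar2 in fibroblast-like cells (−0.043) and Ifnar2 in neutrophil-like cells (−0.048) across MC38 classes. Within isotype barcodes it reversed for Ifngr1 in macrophage-like cells (0.38), Ifnar1 in mural-like cells (0.10), Ifngr2 in neutrophil-like cells (−0.014) and Ifngr2 in Ptprc-low cells (−0.88) across MC38 classes. Within CPI barcodes it reversed for Ifnar1 in macrophage-like cells (−0.042), Ifngr2 in Ptprc-low cells (−0.48) and Ifnar2 in Treg-like cells (0.049) across MC38 classes. Without the NK sums it reversed for Ifnar2 in fibroblast-like cells (−0.019) and Ifngr2 in Ptprc-low cells (−0.18) across MC38 classes. With single TDLN reactions left out the sign also turned for Ifnar1 in CD4 naive T-like cells (between −0.058 and 0.26) and in the cytotoxic cluster (between −0.78 and 0.27), for Ifnar2 in CD8 naive T-like cells (between −0.033 and 0.69) and for Ifngr2 in Treg-like cells (between −0.21 and 0.16). With an MC38 reaction left out, values that had not passed turned sign, by more than their spread for Ifnar1 (−0.15) and Ifngr2 (0.75) in CD4 helper T-like, Ifnar2 in neutrophil-like (−0.18) and Treg-like (0.059) and Ifnar1 in NK-like cells (0.028) across classes, Ifnar2 in macrophage-like cells (0.12) for CPI against isotype, Ifngr2 in fibroblast-like cells for CPI + ABT-317 against CPI (−0.24) and against isotype + ABT-317 (−0.34), and Ifnar1 in macrophage-like cells (0.074) for the latter. With the leading hashtag as treatment it reversed for Ifnar1 in fibroblast-like cells (0.16) for CPI + ABT-317 against CPI, and Ifnar1 in Ptprc-low cells (−0.013) for CPI + ABT-317 against isotype + ABT-317.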
